A study of Mus musculus with 8 samples.

Results

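The 10 genes described here are red cell genes measured in mouse pancreatic buds: the embryonic globins Hbb-bh1, Hbb-y and Hba-x, the membrane proteins Slc4a1, Rhag, Kel and Epb42, the haem enzyme Alas2, and the erythroid transcription factors Klf1 and Gata1. They were found by gene symbol among 19938 genes on Affymetrix mouse gene 1.0 ST arrays, and all 10 were present with 1 probe set each. The VEGF pool held freshly isolated e12.5 buds of 3 embryos that carried Pdx1-tTA, in which the Pdx1 promoter, active in pancreatic progenitors, drives a tetracycline transactivator, together with TET-VEGF, a VEGF transgene which that transactivator switches on. The control pool held e12.5 buds of 3 littermates with Pdx1-tTA alone, so both bud pools carried the transactivator. The remaining pools were explants: e12.5 buds of wild type embryos grown for 2 days, 5 of them with VEGFR2i, an inhibitor of VEGF receptor 2, and 5 with vehicle. Each pool was 1 preparation of pooled RNA, hybridized to 2 arrays, the second a technical repeat. The spread between arrays is therefore technical, and no test of the transgene or the inhibitor was possible.

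In the mouse embryo the first red cells come from the yolk sac and circulate as large nucleated cells that make embryonic haemoglobin from the zeta-like chain of Hba-x and the epsilon-like and beta-like chains of Hbb-y and Hbb-bh1. As these primitive cells mature, transcripts of Hbb-bh1 and Hba-x give way to those of Hbb-y and of the adult alpha chains. Gata1 and Klf1 switch on globin, haem and membrane genes by binding GATA and CACCC motifs. The primitive red cells travel in the vessels of the embryo, so RNA of a tissue with filled vessels holds their transcripts.

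Promoter bases are shown for 4 of the genes, since the transcription factors of the set bind short motifs there and the genes differ in how their levels were ordered across the pools. RefSeq windows on GRCm38.p6 were matched for 8 of the 10 genes, all except Hbb-bh1 and Slc4a1. Each line gives the 150 bases before the transcript start, 5′ to 3′ on the strand of the gene. Capitals mark matches on either strand to a GATA motif (AGATAA or AGATAG, and likewise TGATAA or TGATAG), to CACCC, to TATAAA and to CCAAT.
Hbb-y, chr7:103853208-103853357 (- strand): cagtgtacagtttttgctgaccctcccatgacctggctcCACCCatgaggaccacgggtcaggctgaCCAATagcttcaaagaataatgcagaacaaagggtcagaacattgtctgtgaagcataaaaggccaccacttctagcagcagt
Hba-x, chr11:32276450-32276599 (+ strand): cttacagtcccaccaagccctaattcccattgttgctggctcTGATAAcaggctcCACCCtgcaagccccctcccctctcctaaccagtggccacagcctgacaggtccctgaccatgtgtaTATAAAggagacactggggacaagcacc
Alas2, chrX:150547267-150547416 (+ strand): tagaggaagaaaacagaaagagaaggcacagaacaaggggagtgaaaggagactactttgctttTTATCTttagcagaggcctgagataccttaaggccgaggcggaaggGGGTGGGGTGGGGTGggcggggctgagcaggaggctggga
Epb42, chr2:121036878-121037027 (- strand): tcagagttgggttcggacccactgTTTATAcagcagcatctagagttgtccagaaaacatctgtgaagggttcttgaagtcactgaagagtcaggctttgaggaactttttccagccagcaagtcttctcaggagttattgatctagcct

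Over 250 bases before the start, a GATA motif was found in 7 of the 8 windows and CACCC in 7 of 8. Among all 32851 promoter windows of that length, 26.5% held the GATA motif and 52.0% held CACCC. The Hba-x window had TGATAA from 108 to 103 bases before the start, CACCC from 95 to 91 and TATAAA from 28 to 23. In the Hbb-y window CACCC lay from 111 to 107 bases before the start, CCAAT from 83 to 79, and a GATA match on the opposite strand from 162 to 157, just outside the printed stretch. Alas2 had 3 adjacent CACCC matches on the opposite strand between 40 and 26 bases before the start. In the Kel window, which is not printed, AGATAA lay from 56 to 51 and TGATAA from 19 to 14 bases before the start, next to CACCC from 5 to 1. Gata1 was the window with no GATA match, and Epb42 the one with no CACCC match. In 5 of the 8 windows the start equalled the gene start given by RefSeq. In those of Rhag, Kel and Gata1 it did not, so their matches and positions hold for the start of the window used. The motif TATAAA was found in 3 of 8 windows against 12.4% of all, and CCAAT in 3 of 8 against 33.8%. In the Rhag window a match to CCAAT overlapped one to CACCC, both on the opposite strand. A match is a string of letters and does not show that a factor was bound.

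The arrays of a pool agreed closely, with a Pearson correlation of 0.997 to 0.998 across probe sets and 4 to 25 of 19938 genes apart by 1.5-fold. Among the 10 genes the largest gap between the arrays of a pool was 0.24 on the log2 scale. Expression is given on that scale throughout, as the authors' normalized (RMA) values, and a level of one gene cannot be set against that of another, since probes differ in brightness. Under the size rule used here, a gene is higher in a pool whose mean is at least 1.5-fold that of the other pool (0.585 in log2 units) with no overlap of their arrays, and lower in the converse case. Among tissue markers, 4 of 9 epithelial genes were lower and 0 higher in the VEGF buds, beside 0.933% and 0.552% of all genes. The 10 mesenchymal genes were all short of the size rule in both comparisons. The epithelial factor Ptf1a was dim in fresh buds, at 3.84 to 3.99 on their 4 arrays, against 6.69 to 7.37 in the explants. Whether buds and explants were normalized together is not known. The other epithelial markers were not dim in fresh buds, reading from 6.26, for Pdx1, up to 11.74, for Cpa1. In the explants 14 of 15 endothelial markers were higher with VEGFR2i as labelled, beside 1.82% of all genes. Endothelial cells depend on VEGF receptor 2, so these markers go against the labels. Directions in the explants therefore follow the labels as they stand, and every value belongs to the library labelled that way. If the explant labels were exchanged, each explant difference would keep its size and change its sign. Hbb-y and Hba-x would then be lower with VEGFR2i by the size rule. Hba-x would meet that rule in opposite directions in the buds and explants, while Hbb-y was short of it in the buds.

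**Figure D1:**
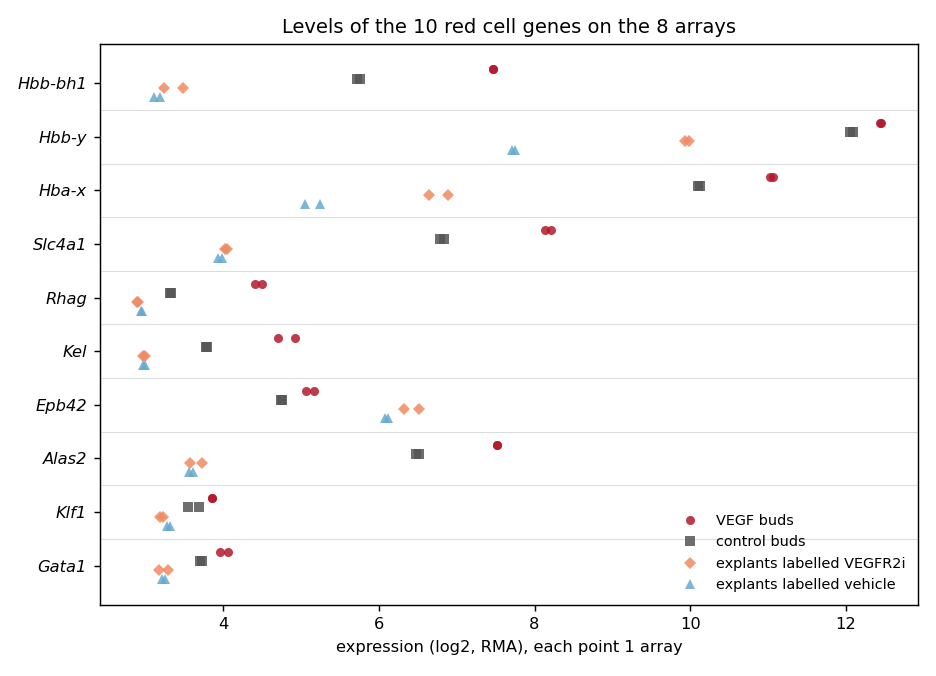
Expression of the 10 red cell genes (log2, horizontal axis) on each of the 8 arrays, by pool; each point is 1 array and each row 1 gene. In 9 of the 10 rows both arrays of the VEGF buds lie farthest to the right, at 12.45 and 12.44 for Hbb-y; Epb42 is the exception, with the explants farthest right.

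The first comparison asked how red cell genes stood in buds with added VEGF. All 10 genes lay higher on both VEGF arrays than on both control arrays, as did 23.7% of all 19938 genes, and 6 of the 10 were higher by the size rule: Hbb-bh1, Hba-x, Slc4a1, Rhag, Kel and Alas2. Of all genes, 0.552% were higher and 0.933% lower by that rule. The median difference of the 10 genes was 0.97, against 0.00 over all genes. The 10 genes were chosen with earlier results of these data known, so these contrasts with all genes are not a test. Measured in bulk RNA, a larger number of red cells and more RNA per red cell cannot be told apart.

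Among the embryonic globins the beta-like chain gene Hbb-bh1 had the widest gap. It read 7.46 on both VEGF arrays and 5.72 and 5.76 on the control arrays, a difference of 1.72 between pool means with a range of 1.70 to 1.74 over the 4 pairs of arrays. That is 3.29-fold, and Hbb-bh1 ranked 4 among 19938 genes by increase. The zeta-like chain gene Hba-x read 11.07 and 11.02 in the VEGF buds against 10.13 and 10.10 in the control buds. Its difference was 0.93 (0.90 to 0.96 over the pairs), or 1.90-fold, and it was short of a 2-fold limit. Hbb-y, the epsilon-like chain gene, read 12.45 and 12.44 against 12.09 and 12.05, and its difference of 0.38 stayed short of the size rule. The 3 globin genes thus ranged from 1.30-fold for Hbb-y to 3.29-fold for Hbb-bh1. Values of Hbb-y were near the top of the scale, where the highest probe set on any fresh bud array read 13.5; the part of that ceiling in its small difference was not tested. Hbb-bh1 and Hbb-y lie side by side in the beta-globin cluster, with 0 protein-coding genes between them in the RefSeq table. Adult alpha and beta globins had no probe set with a single gene symbol and were not analysed here.

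Membrane proteins of the red cell followed. Slc4a1, the anion exchanger known as band 3, read 8.21 and 8.14 in the VEGF buds and 6.79 and 6.83 in the control buds. The gap of 1.37 (1.30 to 1.43) was 2.58-fold and ranked 6 among all genes. Rhag, the Rh-associated glycoprotein, read 4.50 and 4.41 against 3.33 and 3.32, which was 1.13 higher (1.08 to 1.18), or 2.19-fold. Kel, the peptidase that carries the Kell antigens, read 4.92 and 4.70 against 3.78 and 3.79, a gap of 1.03 (0.91 to 1.14), or 2.04-fold. Both stood toward the dim end of the arrays in the control buds, where 25% of genes had means under 3.26. Epb42, protein 4.2, which ties band 3 to the membrane skeleton, read 5.07 and 5.17 against 4.76 and 4.74. Its difference of 0.37 (0.31 to 0.43) was short of the size rule although the arrays did not overlap.

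Alas2, the erythroid form of the first enzyme of haem synthesis, read 7.51 and 7.52 in the VEGF buds and 6.52 and 6.48 in the control buds. The difference was 1.01 (0.99 to 1.04), or 2.02-fold, and ranked 12 among all genes. The transcription factor genes were short of the size rule. Klf1 read 3.86 on both VEGF arrays against 3.54 and 3.69, a difference of 0.24 (0.17 to 0.32). Gata1 read 3.96 and 4.06 against 3.73 and 3.71, a difference of 0.29 (0.23 to 0.35). Both factors stood low on every array, at 4.06 or less, and the arrays of the pools did not overlap for either.

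**Figure D2:**
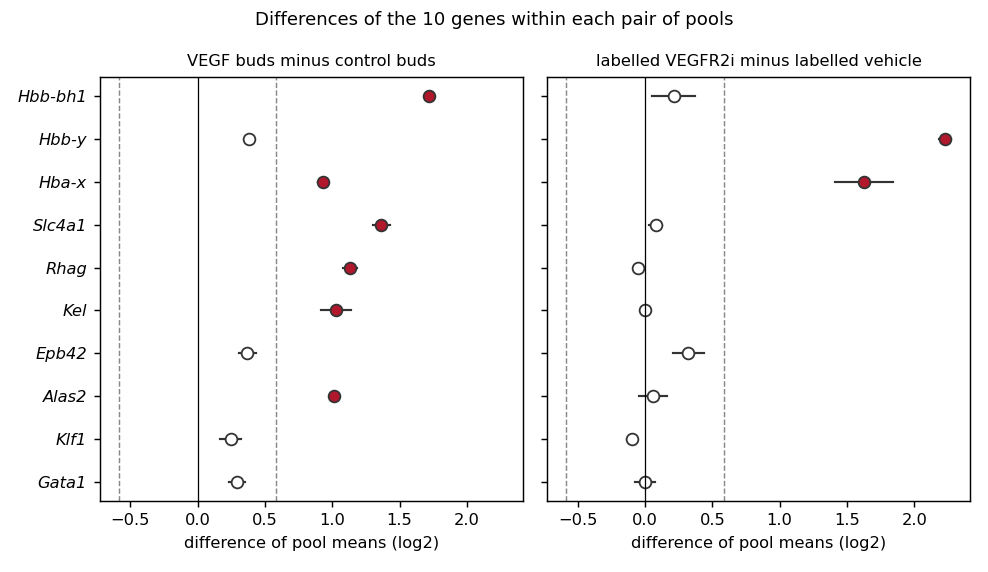
Difference of pool means (log2) for each gene, in fresh buds on the left and explants on the right; lines span the range over the 4 pairs of arrays, filled points met the size rule and dashed lines mark 1.5-fold. Filled points number 6 on the left and 2 on the right, and Hba-x is the gene filled on both sides, at 0.93 and 1.62.

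The second comparison set the explant pools against each other. Of the 10 genes, 2 were higher and 0 lower in explants labelled VEGFR2i, beside 1.82% of all genes higher and 0.371% lower. Both were globins. Hbb-y read 9.99 and 9.94 in the pool labelled VEGFR2i and 7.75 and 7.72 in the pool labelled vehicle. The difference was 2.23 (2.18 to 2.27), or 4.69-fold. Hba-x read 6.65 and 6.89 against 5.24 and 5.05, which was 1.62 higher (1.41 to 1.84), or 3.08-fold. Hbb-bh1 read 3.48 and 3.24 against 3.19 and 3.11, and its difference of 0.21 (0.05 to 0.37) was short of the size rule. Hbb-bh1 lay in the dimmest 25% of genes in both explant pools, and Hbb-y near the top of the scale in the buds, so the sizes of the globin differences are not ranked between the comparisons. Whether a globin's difference differed between the 2 comparisons was not tested, since each pool is 1 preparation.

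The other 7 genes had small differences in the explants, from -0.10 for Klf1 to 0.32 for Epb42. Slc4a1 read 4.02 and 4.05 against 3.93 and 3.99, and Alas2 3.57 and 3.73 against 3.56 and 3.61. Rhag read 2.89 and 2.91 against 2.95 and 2.94, and Kel 2.97 and 3.00 against 3.00 and 2.97. Klf1 read 3.19 and 3.22 against 3.28 and 3.32, and Gata1 3.18 and 3.29 against 3.22 and 3.25. Pool means of Hbb-bh1, Rhag, Kel, Klf1 and Gata1 lay in the lowest 25% of genes in both explant pools, under 3.37 and 3.40. At such dim levels a difference in these 5 genes may not be detectable on these arrays. Pool means of Slc4a1, at 4.04 and 3.96, and of Alas2, at 3.65 and 3.59, lay not far above those limits, and the same may hold for them. The median difference of the 10 genes was 0.07, against 0.00 over all genes.

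The counts were then read under other limits. At 2-fold, 5 of the 10 genes were higher in the VEGF buds and 0 lower, beside 0.0602% of all genes higher and 0.191% lower, and Hba-x was the gene no longer counted. In the explants Hbb-y and Hba-x were still counted at 2-fold, beside 0.617% higher and 0.0502% lower. At a looser limit of 0.32 in log2 units, 8 of the 10 were higher in the VEGF buds and 0 lower, beside 2.4% and 2.76% of all genes, with Hbb-y and Epb42 joining. The explants again had 2 higher and 0 lower, beside 4.46% and 1.83%. The arrays repeat the same RNA, so p-values here reflect hybridization error alone. With that limit, the methods' t-test at an unadjusted 0.05 with 1.5-fold counted 6 of the genes higher in the buds, beside 0.517% of all genes higher and 0.843% lower, and 2 in the explants, beside 1.69% and 0.346%. After Benjamini-Hochberg adjustment it counted 0 of the 10 in either comparison, beside 0% of all genes in the buds and, in the explants, 0% higher and 0.00502% lower. limma after that adjustment counted 6 and 2, beside 0.542% higher and 0.933% lower in the buds and 1.82% and 0.366% in the explants.

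**Figure D3:**
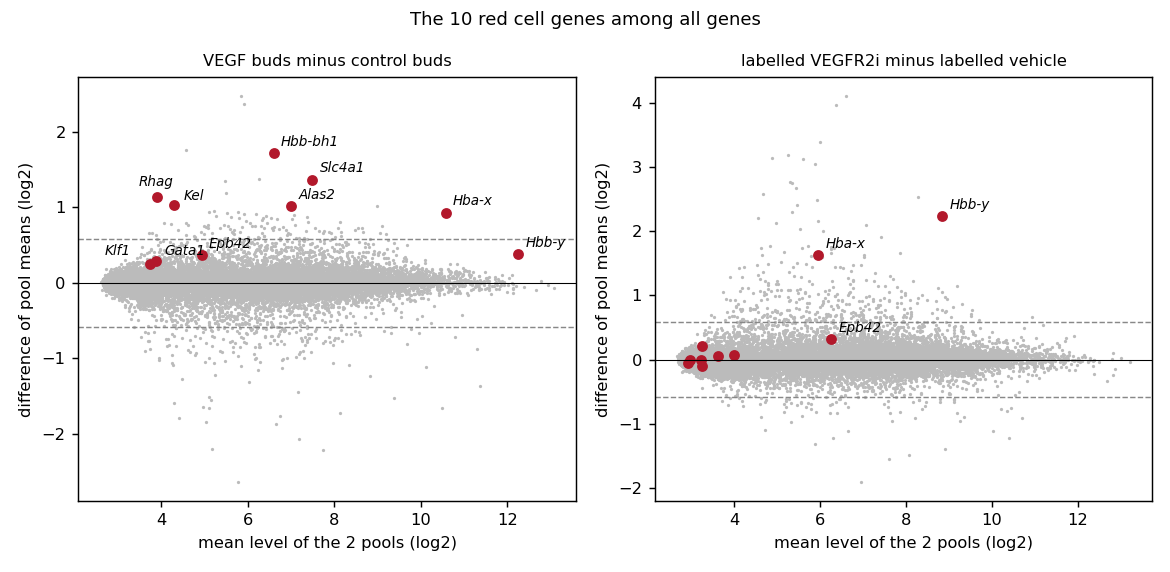
Difference of pool means (log2, vertical axis) against the mean level of the pools (log2, horizontal axis) for 19938 genes in grey and the 10 red cell genes in red; dashed lines mark 1.5-fold. In fresh buds 6 red points lie above the upper line and Hbb-y sits at the bright end with 0.38; in explants Hbb-y and Hba-x lie above it, at 2.23 and 1.62, while the unlabelled red points cluster at the dim end.

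Levels were then ordered across the 4 pools. Whether buds and explants were normalized together is not known, and the median over genes was 5.00 on bud arrays and 5.43 on explant arrays, so levels across these sets carry that limit. Of the 10 genes, 6 were higher in both bud pools than in both explant pools by the size rule in all 4 pairs of pools, namely Hbb-bh1, Hbb-y, Hba-x, Slc4a1, Kel and Alas2, while 2.13% of all genes did so. In single pairs of pools, control buds over explants labelled vehicle had 6 of the genes higher and 1 lower, beside 4.08% of all genes higher and 17.9% lower. Control buds over explants labelled VEGFR2i also had 6 higher and 1 lower, beside 2.52% and 17.7% of all genes. VEGF buds had 9 higher and 1 lower over the explants labelled VEGFR2i, beside 3.32% and 18.3%, and 8 higher and 1 lower over those labelled vehicle, beside 4.92% and 18.6%. Hba-x had the widest span, from 11.04 in the VEGF buds and 10.12 in the control buds to 6.77 in the explants labelled VEGFR2i and 5.15 in those labelled vehicle. The control buds were thus 31.4-fold above the explants labelled vehicle and 10.2-fold above those labelled VEGFR2i. Hbb-y stood in the same order, at 12.45, 12.07, 9.96 and 7.74, with the VEGF and control buds apart by less than the size rule.

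Hbb-bh1 stood at 7.46, 5.74, 3.36 and 3.15 in that order of pools. Slc4a1 stood at 8.17, 6.81, 4.04 and 3.96, and Alas2 at 7.52, 6.50, 3.65 and 3.59. In these 3 genes the explant pools were neighbours that did not differ by the size rule, and both other steps did. Kel stood at 4.81, 3.79, 2.99 and 2.98, also with the explant pools undivided. For Rhag the single step past the size rule was that between the VEGF buds, at 4.45, and the control buds, at 3.32, with the explants at 2.95 for vehicle and 2.90 for VEGFR2i. No neighbouring pools differed by the size rule for Klf1, which spanned 3.86 to 3.21, or for Gata1, which spanned 4.01 to 3.23.

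Epb42 was ordered the other way round. It stood at 6.42 in the explants labelled VEGFR2i, 6.10 in those labelled vehicle, 5.12 in the VEGF buds and 4.75 in the control buds, and was lower in both bud pools in all 4 pairs, as were 14% of all genes. With each array centred on its median, 9 of the 10 genes were higher in both bud pools in all 4 pairs and 0 lower. Rhag, Klf1 and Gata1 joined, and Epb42 no longer met the rule in all 4 pairs. Bud medians minus explant medians came to -0.44, and centring removes that gap for every gene. Before centring, the Epb42 differences ran from -0.98 to -1.67 over the 4 pairs, each wider than that gap. The share of all genes under centring was not counted, so the change is not read as particular to these genes. Which cells of the explants carried Epb42 was not tested.

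By Pearson correlation over the 8 arrays of 4 pools, the genes whose profile was most like the mean centred profile of the 10 genes were Rabl2 (0.998), Plce1 (0.998), the glucose transporter Slc2a3 (0.998), Fam13c (0.996), Npnt (0.995), Hecw2 (0.995), Sox12 (0.995) and the mesenchymal factor Barx1 (0.994). They were the highest of 2512 genes whose pool means spanned at least 1 on the log2 scale. The arrays of a pool are not independent and the wide step from buds to explants weighs most, so the coefficients describe likeness in these 4 pools. Slc2a3 stood at 8.10 in the VEGF buds, 7.42 in the control buds, 6.39 in the explants labelled VEGFR2i and 5.88 in those labelled vehicle. In the fresh buds Slc2a3 differed by 0.68 and Hecw2 by 0.60, both past 1.5-fold, and the other 6 by 0.30 to 0.55. In the explants the 8 differed by 0.11 to 0.52.

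Further genes of the red cell programme were taken from 6 lists of 97 genes, of which 84 were measured. In the fresh buds 3 of the 84 were higher in the VEGF pool and 0 lower, beside 0.552% of all genes higher and 0.933% lower. The median of the 84 was 0.12, against 0.00 over all genes. Car2, a carbonic anhydrase of red cells and other tissues, read 7.05 and 6.85 against 5.73 and 5.43, or 2.59-fold. Sptb, the beta chain of red cell spectrin, read 5.43 and 5.47 against 4.62 and 4.75, or 1.70-fold. Rhd, the partner of Rhag in the Rh complex, read 4.17 and 4.23 against 3.51 and 3.62, or 1.55-fold. Of 17 membrane and skeleton genes 15 had positive differences, and their median was 0.26. Over all 19938 genes 10282 were positive. Of 17 genes of haem synthesis and iron supply 0 met the size rule and 12 were positive, with a median of 0.15; among them the transferrin receptor Tfrc differed by -0.11 and the iron regulator Ireb2 by -0.05.

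Erythroid transcription factors and co-factors had 0 of 17 members past the 1.5-fold limit in the fresh buds, around a median of 0.00. The partner proteins Ldb1 and Tcf3 differed by 0.00 and 0.01. Erythropoietin and stem cell factor signalling had 0 of 10 past the rule and a median of 0.04, with the kinase gene Jak2 at 0.12 and the receptor gene Kit at -0.25. Red cell enzymes and maturation genes had a median of 0.09, with Car2 as the 1 of 20 past the rule, and with the antioxidant gene Prdx2 at -0.02 and the mitophagy gene Bnip3l at -0.01. The 3 other globin-like genes measured stood at 3.91 or less on every bud array, Hbq1b differing by 0.23 and Hbb-bh2 by 0.00. Most genes of the wider programme are also expressed outside red cells.

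In the explants 6 of the 84 were higher in the pool labelled VEGFR2i and 0 lower, beside 1.82% of all genes higher and 0.371% lower. The median of the 84 was -0.02, against 0.00 over all genes. Lmo2, a bridging factor of blood and endothelial cells, read 7.68 and 7.12 against 5.84 and 6.21, or 2.59-fold. Aqp1, a water channel of red cells and endothelium, differed by 0.92, the tetraspanin Tspan8 by 0.68 and the glycophorin Gypc by 0.72. The haem oxygenase Hmox1, which breaks haem down, differed by 0.63 and the stem cell factor gene Kitl by 0.63. With each array centred on its median, Hmox1 differed by 0.575 and Kitl by 0.572 and neither met the rule. In the VEGF buds Lmo2 differed by 0.36, Aqp1 by 0.30, Tspan8 by 0.26, Gypc by 0.12, Hmox1 by 0.52 and Kitl by 0.35. These 6 positive differences were short of the size rule, which 0.552% of all genes met as higher there.

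**Figure D4:**
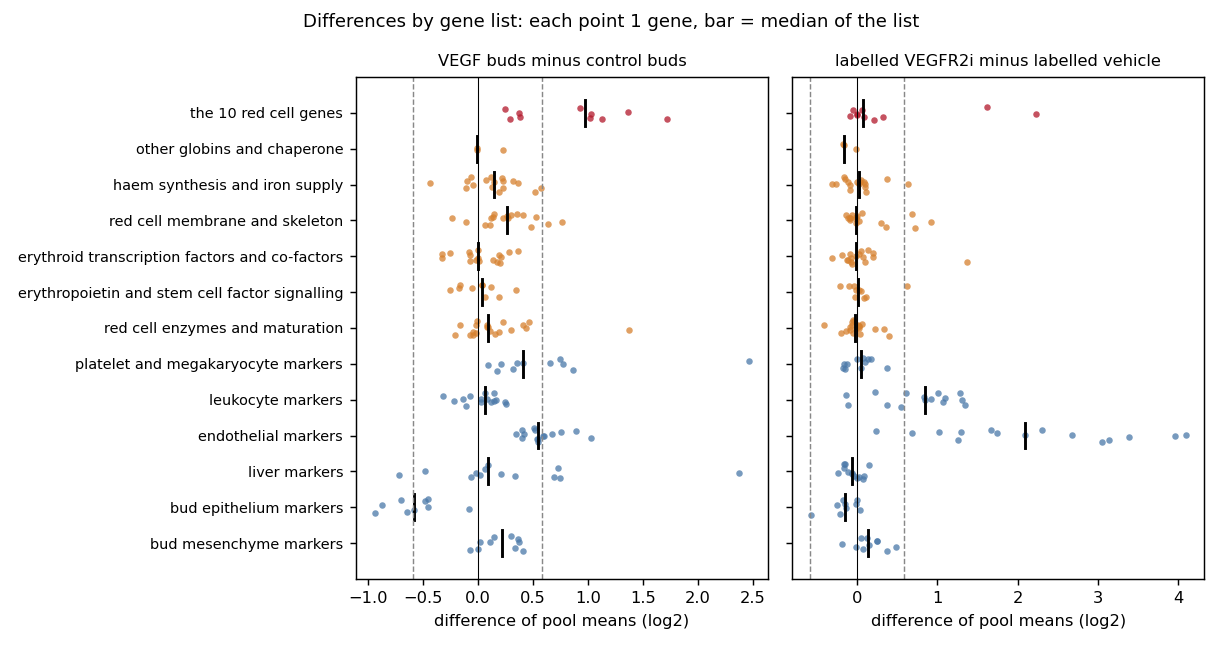
Difference of pool means (log2) by gene list, fresh buds on the left and explants on the right; each point is 1 gene, black bars are list medians and dashed lines mark 1.5-fold. The medians of the 10 red cell genes are 0.97 and 0.07, those of the endothelial markers 0.54 and 2.10, and those of the leukocyte markers 0.07 and 0.84.

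Markers of other cells that a bud could hold were read beside the red cell genes. By the size rule 0.552% of all genes were higher and 0.933% lower in the VEGF buds. In the fresh buds 5 of 11 platelet and megakaryocyte markers were higher in the VEGF pool and 0 lower, with a median of 0.41. The mean level of that list was 5.29 to 5.36 on the VEGF arrays and 4.66 to 4.71 on the control arrays. The platelet chemokine Ppbp differed by 2.47 and the integrin Itgb3 by 0.87. Endothelial markers had 6 of 15 higher and 0 lower with a median of 0.54, including Cd34 at 1.02 and Flt1 at 0.90, and list means of 7.92 to 7.95 against 7.34 to 7.36. Leukocyte markers had 0 of 15 past the rule, the list median being 0.07, with Cd68 at 0.25 and S100a8 at -0.31, and list means of 5.39 to 5.47 against 5.38 to 5.42. Liver markers had 4 of 13 higher and 1 lower, a median of 0.09 and list means of 4.66 against 4.33 to 4.37; the liver is where definitive red cells form at this stage. The higher ones were Alb at 2.37, Apoa1 at 0.74, Afp, which read 9.02 and 8.99 against 8.25 and 8.31, and Apoa2, which read 4.66 and 4.80 against 4.07 and 4.01. The lower one was Hnf4a, a factor of liver and gut epithelia, at 5.47 against 6.19. Among the 8 short of the rule, Apob differed by 0.34 and Ahsg by 0.21 with the arrays apart, the fibrinogen chain Fgb by -0.48 with the arrays apart, and Fga, Fgg, Apoc3, Tat and Cps1 by -0.06 to 0.09 with overlapping arrays. Summed on the linear scale, platelet markers came to 608 to 693 on the VEGF arrays against 410 to 429, endothelial markers to 4689 to 4834 against 3073 to 3086, and liver markers to 858 to 884 against 551 to 582. The part that platelets, vessels or liver tissue had in the red cell values was not tested.

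The same lists were read in the explants. There 1.82% of all genes were higher by the size rule in the pool labelled VEGFR2i and 0.371% lower. Platelet markers had 0 of 11 past the rule and a median of 0.05, with Pf4 at 0.38, F13a1 at 0.17 and Ppbp at 0.05. Their list means were 3.81 to 3.82 in the pool labelled VEGFR2i and 3.77 to 3.82 in that labelled vehicle. Leukocyte markers had 10 of 15 higher and 0 lower, led by Laptm5 at 1.35 and Cybb at 1.31. Their list means were 5.64 to 5.71 against 4.90 to 4.96. Endothelial markers had 14 of 15 higher and 0 lower, led by Cdh5 at 4.10 and Cd93 at 3.96. Their list means were 6.68 to 6.73 against 4.49 to 4.57. Liver markers had 0 of 13 past the rule, with Hnf4a at -0.24 and Tat at -0.17. Summed on the linear scale, endothelial markers came to 2325 to 2451 in the pool labelled VEGFR2i against 453 to 489, and leukocyte markers to 1336 to 1388 against 676 to 707. The 2 globins that were higher in the explants thus stood beside higher endothelial and leukocyte lists, whose part in the globin values was not tested. Car2, Ppbp and Alb, which were higher in the VEGF buds, differed by 0.33, 0.05 and 0.09 in the explants.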

How the data were processed

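Pooled RNA of e12.5 pancreatic buds was hybridized to 8 Affymetrix mouse gene 1.0 ST arrays, 2 per pool. Per the series' design text, the authors normalized the arrays by RMA with Partek Genomic Suite 6.5; the values deposited per probe set lie between 2.41 and 13.57 and were taken as log2. Whether buds and explants were normalized together is not stated in those sources.

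Of 35399 probe sets, 21789 had 1 gene symbol in the platform annotation, 1621 had several and 11989 were unnamed. Where a gene had several probe sets, the brightest on average was used, which gave 19938 genes. The 2 arrays of a pool limit the technical precision alone, and with 1 pool per condition the spread between pools was not measured. Pools were compared by the size rule, with no test; its script was tested on simulated data (Python 3.11.15, limma 3.58.1). The members and lists were chosen with earlier results of these data known. Named genes were the 10 genes, list genes past the size rule (with fewer than 2, the 2 with the highest mean added), the 2 with the widest difference per marker list and comparison, and the 8 most alike. Slc25a37 and the rest of the liver list (Afp, Apoa2, Fgb, Fga, Fgg, Ahsg, Apob, Apoc3 and Cps1) were picked after their values were seen. Promoter windows came from RefSeq, GRCm38.p6.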

Additional observations from a re-analysis of the deposited data

Results flagged for a closer look

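Some named genes lay with both arrays of one pool above those of the other in the fresh buds, and the opposite way round in the explants as labelled. They were 10 of 70 named genes, or 14.3%, beside 8.88% of all genes, and nothing particular to red cell genes is read from that share. Of the 10 red cell genes, Rhag differed by 1.13 in the VEGF buds and by -0.0486 in the explants labelled VEGFR2i, and Klf1 by 0.24 and -0.10. From the wider lists Rhd differed by 0.63 and -0.0863, Hbq1b by 0.23 and -0.18, and Ireb2 by -0.0474 and 0.085. The neutrophil gene S100a8 differed by -0.31 and 0.23. Among liver markers, Afp differed by 0.72 and -0.15, Apoa2 by 0.70 and -0.16, Fgb by -0.48 and 0.15, and Apob by 0.34 and -0.0695. In the explants the values of Rhag, Klf1, Rhd and S100a8 lay at 3.70 or less on every array. The direction rests on the explant labels, which the endothelial markers go against. With those labels exchanged, these genes would share a direction, and 35 of the 70 would be opposite, beside 17.3% of all genes. Among the 35 are 5 of the 10 red cell genes: Hbb-bh1, Hbb-y, Hba-x, Slc4a1 and Epb42. Many named genes were picked for wide differences, so nothing particular to red cell genes is read from that share either. The difference between the comparisons was not tested, and with 1 pool per condition it could not be.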

How the results depend on the processing

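Of the 10 genes, 6 met the size rule in the buds and 2 in the explants when any single array was left out, under quantile normalization over all 8 arrays and with arrays centred on their medians, as on the values as deposited. Past the size rule in all 4 pairs of bud and explant pools were 6 genes higher and 1 lower with any array left out, against 7 and 1 under quantile normalization and 9 and 0 with centring. The shares of all genes past the rule in all 4 pairs were not counted in these settings. A 2-fold limit left 5 and 2 of the genes, and 1 and 1 of the wider lists (3 and 6 at 1.5-fold), with 50 and 133 of all genes (296 and 437). A looser limit of 0.32 in log2 units gave 8 and 2, 18 and 11, and 1030 and 1254. Keeping genes with a mean of at least 5 left 5 of the 10 to be compared, 3 of them higher in the buds, with 1 of 54 list genes. Of all 10356 genes kept, 85 were higher and 176 lower in the VEGF buds. Leaving out 1 array gave 300 to 337 and 428 to 483 of all genes. Without the second VEGF array or under either renormalization the iron carrier Slc25a37 joined the higher genes in the buds, at 0.70, 0.60 (quantile) and 0.594 (centred) against 0.576. Without the first control array Slc25a37 was at 0.74 and joined them too, while Rhd was short of the rule at 0.581. Without the first array labelled VEGFR2i, Gypc was at 0.581, and without the second array labelled vehicle, Kitl was at 0.52, both short of the rule. Leaving out 1 array gave 3 to 4 list genes in the buds and 5 to 6 in the explants.

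Read as measures of hybridization error alone, the methods' t-test at an unadjusted p under 0.05 with 1.5-fold gave 6 and 2 of the 10 genes, 3 and 5 of the lists, and 271 and 405 of all genes. After Benjamini-Hochberg adjustment it gave 0 and 0, 0 and 0, and 0 and 1. limma with that adjustment gave 6 and 2, 3 and 6, and 294 and 435. No paired analysis was possible because the labels give no replicate numbers and each group is 1 pool. Dim levels in the explants limit what 5 of the genes could show, and may limit Slc4a1 and Alas2, which lay not far above them.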
